A study of Mus musculus with 3 samples.

Results

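A set of 9 genes whose products restrain MAP kinase signaling was followed across the blood cell lineages of naive and transplanted mouse lungs. The set held the dual-specificity phosphatase genes Dusp2, Dusp4, Dusp5, Dusp6, Dusp10 and Dusp16, the Sprouty genes Spry1 and Spry2, and Spred1, out of 32285 genes in the count files. The genes were selected on their UMI levels by lineage in these 3 libraries, so the levels and differences below describe the data and were not tested. Left lungs of B6 (CD45.2) donors were kept for 60 minutes at 4 °C and 45 minutes at 28 °C, transplanted into B6 (CD45.1) recipients and reperfused for 2 hours or 3 days. The naive library came from left lungs of B6 mice that were not operated on. Each condition was 1 single-cell RNA-Seq library of cells pooled from 2 mice. The methods name recipient cells as those sorted, so cells of the donor lung should be few in the transplant libraries. Conditions cannot be told apart from mice, cell preparation or library, and all intervals below are 95% intervals that cover counting error only.

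Growth factor, antigen and cytokine receptors activate RAS, which signals through RAF and MEK to the kinases ERK1 and ERK2. ERK in turn induces genes that switch the same pathway off. Dusp6 protein removes phosphate from ERK in the cytoplasm, Dusp5 from ERK in the nucleus, and Dusp2 and Dusp4 are nuclear phosphatases induced in activated leukocytes. Dusp10 and Dusp16 act mainly on the stress kinases p38 and JNK. Sprouty proteins and Spred1 act further up, at the level of RAS and RAF, and Spred1 brings the RAS inhibitor neurofibromin to the membrane.

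The stretches before the starts of Spry2, Dusp6 and Dusp5 are shown as examples, and other members such as Dusp2 and Spred1 also differed between libraries. All are on GRCm38, from RefSeq, 5′ to 3′ on the strand of the gene. Spry2 is read from the minus strand of chr14:105896820-105897069, Dusp6 from the plus strand of chr10:99262981-99263230 and Dusp5 from the plus strand of chr19:53528895-53529108. Capitals mark matches to the motifs listed after the sequences, other than the NFAT core.
Spry2: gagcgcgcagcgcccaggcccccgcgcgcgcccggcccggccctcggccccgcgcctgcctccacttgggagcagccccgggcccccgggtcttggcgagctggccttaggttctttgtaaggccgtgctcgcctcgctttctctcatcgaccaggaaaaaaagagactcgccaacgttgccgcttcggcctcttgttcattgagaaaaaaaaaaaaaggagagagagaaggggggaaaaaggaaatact
Dusp6: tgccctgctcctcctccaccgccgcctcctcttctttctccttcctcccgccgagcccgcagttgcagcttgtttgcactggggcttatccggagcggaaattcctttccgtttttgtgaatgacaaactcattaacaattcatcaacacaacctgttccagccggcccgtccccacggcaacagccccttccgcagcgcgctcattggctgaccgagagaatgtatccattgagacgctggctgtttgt
Dusp5: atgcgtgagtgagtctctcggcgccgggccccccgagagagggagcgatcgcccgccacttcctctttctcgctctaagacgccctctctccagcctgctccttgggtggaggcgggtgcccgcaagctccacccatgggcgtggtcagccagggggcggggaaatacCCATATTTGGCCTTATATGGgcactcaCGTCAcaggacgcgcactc
The 250 bases before the RefSeq start were searched on both strands for the AP-1 site TGANTCA, the cAMP response element TGACGTCA and its short form TGACG, the ETS site CCGGAAG, the EGR site GCGNGGGCG, the NF-kB site, the CArG box bound by serum response factor, the T-box site AGGTGTGA and the NFAT core TTTCC. Dusp5 held a pair of adjacent CArG boxes, from 82 to 73 and from 72 to 63 bases before the start, and 1 short cAMP element. A CArG box was found in 1.4% of 27025 promoters and the short cAMP element in 17.9%. The NFAT core, which 55.6% of promoters held, matched 3 times in Spry2, 2 times in Dusp6 and 1 time in Dusp5. Neither Spry2 nor Dusp6 held any of the other motifs in this window. Among the other members, Dusp2 and Dusp16 each held an EGR site, which 4.65% of promoters held, and Dusp16 also held the short cAMP element. Dusp4 had no entry in the table.

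After the cell filters of the methods, 2422 naive, 10283 2-hour and 8324 3-day cells remained. They had medians of 7298.5, 878 and 5716.5 unique molecular identifiers (UMIs), so the 2-hour library was the shallowest. Clusters were named from marker lists as T-like, NK-like, B-like, neutrophil-like, monocyte-like and macrophage-like, and the members themselves took no part in the clustering. Mostly different clusters held each lineage in each library. In the order naive, 2 hours and 3 days, T-like cells lay mainly in cluster 11, then 4, 9 and 19, then 7, and NK-like cells clusters 13, 6 and 20. B-like cells lay in clusters 12, 3 and 2, neutrophil-like cells in clusters 16, 0 with 5, and 1, and monocyte-like cells in clusters 26, 15, and 8 with 14. Cluster 15 also held 55 monocyte-like cells of the 3-day library, cluster 28 held 37 more, and cluster 3 held 48 of its B-like cells. Only 5 macrophage-like cells were found at 2 hours by cluster, so macrophages were compared between 3 days and naive alone. That number depended on the clustering. With kept cells called one by one from marker UMIs, the 2-hour library had 85 macrophage-like and 218 monocyte-like cells. Cell barcodes shared between libraries numbered 8 for naive and 2 hours, 1 for naive and 3 days, and 23 for 2 hours and 3 days. UMIs were summed per lineage and library and are given as counts per 1000000 UMIs of those cells (CPM).

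**Figure D1:**
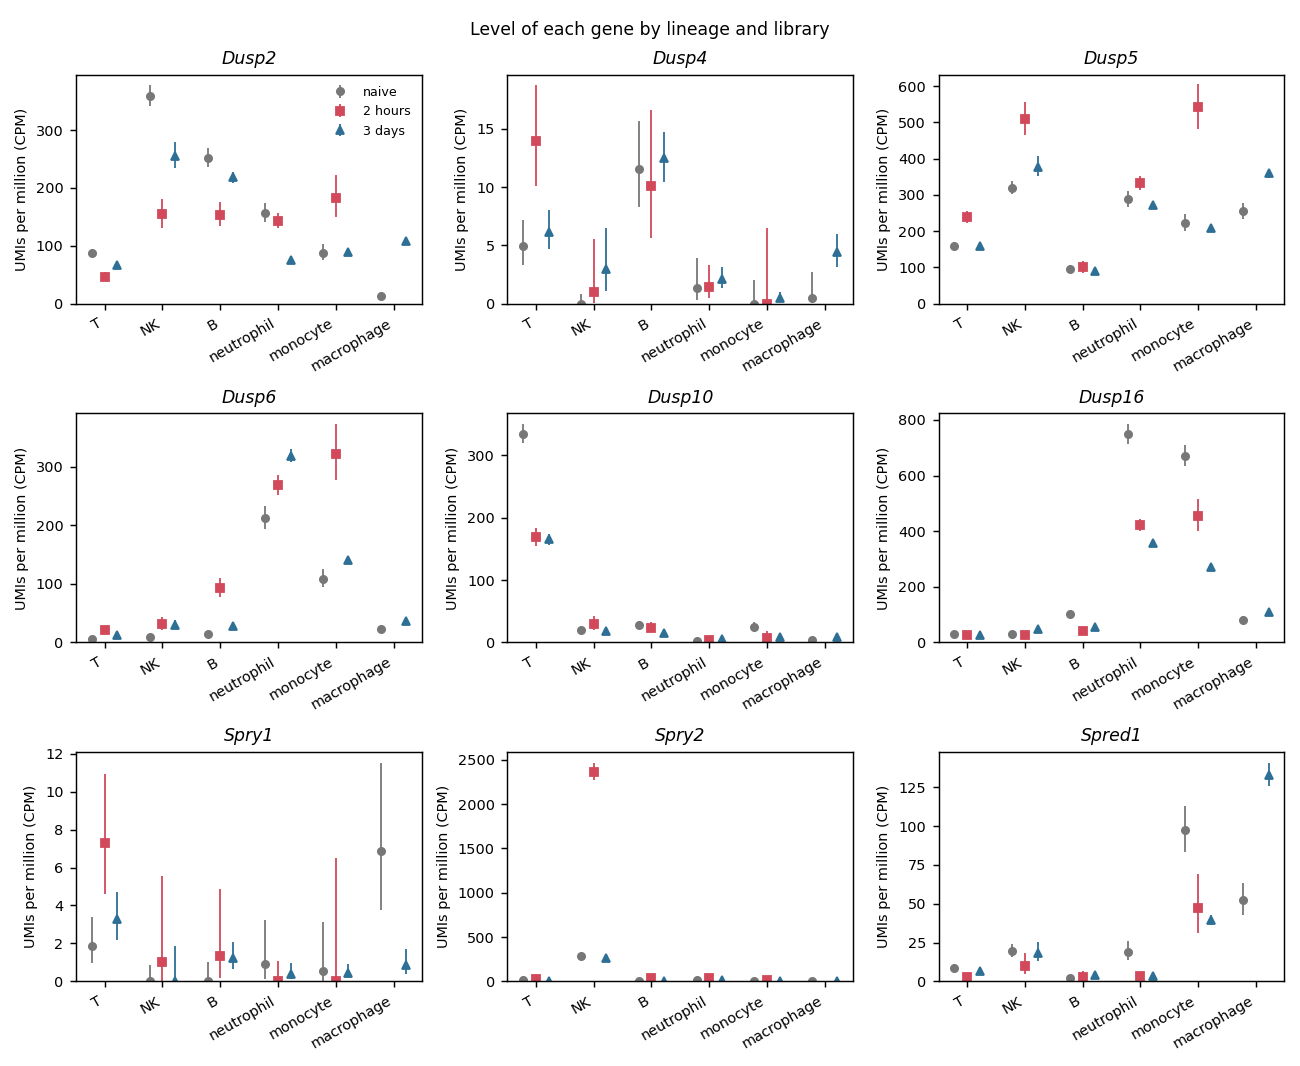
CPM (y axis, from 0, a different scale in each panel) of the 9 genes in 6 lineages (x axis) in the naive, 2-hour and 3-day libraries, with 95% Poisson intervals. Spry2 stands out in NK cells at 2 hours (2365 CPM) and Dusp10 in T cells of every library, while Dusp4 and Spry1 stay under 15 CPM throughout.

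Spry2, which restrains RAS and RAF signaling downstream of receptor tyrosine kinases, was highest in NK-like cells among the 6 lineages in all 3 libraries. Outside these lineages Spry2 reached 1604 CPM at 2 hours in basophil or mast cell-like cells. In NK-like cells it was at 289.5 CPM in naive lungs, 2365 CPM 2 hours after reperfusion and 259 CPM after 3 days. The naive and 3-day values lay close together, and the 2-hour value lay far above both. At 2 hours relative to 3 days, the log2 ratio stood at 3.19 (95% interval 3.05 to 3.33), or 9.13-fold, which ranked 37 of 7812 measured genes from the highest. Against naive cells it was 3.03 (2.93 to 3.13), rank 96 of 8055. NK-like cells held 90.2%, 90.3% and 61.3% of the Spry2 UMIs of the 6 lineages in the naive, 2-hour and 3-day libraries.

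The difference lay in many cells rather than a few. When every cell was thinned to 500 UMIs, 59.3% (56.1 to 62.4) of 961 NK-like cells at 2 hours had a Spry2 UMI, against 12.8% (10.0 to 16.0) in the naive library and 13.1% (9.62 to 17.2) at 3 days. This left out 41 shallower cells, all at 2 hours. Before thinning, the shares were 78.5%, 71.6% and 68.7% in the naive, 2-hour and 3-day libraries, at very different depths. At least 3 UMIs were found in 19.6% of thinned cells at 2 hours and in 0% of the others, and the highest count was 9, against 2 in either other library.

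**Figure D2:**
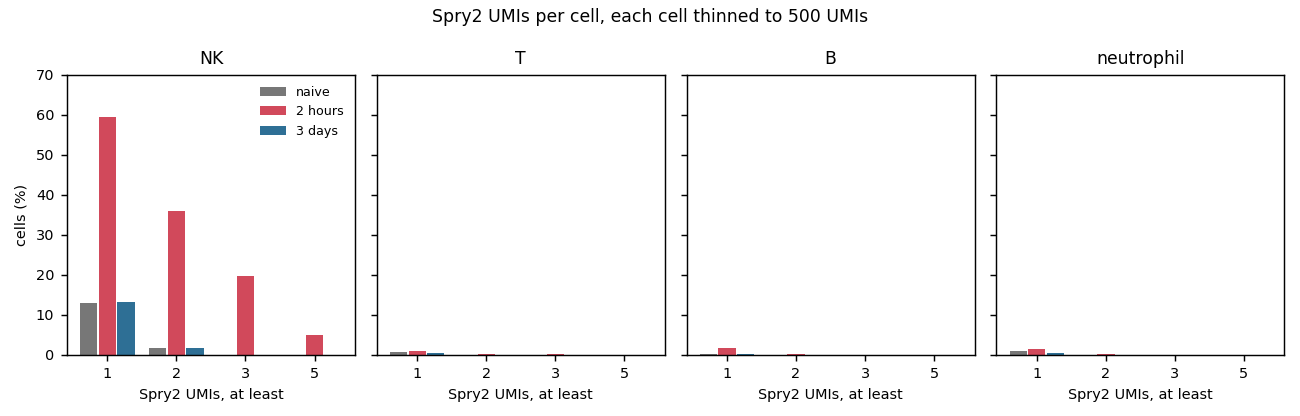
Percentage of cells (y axis) with at least 1, 2, 3 or 5 Spry2 UMIs (x axis) after thinning each cell to 500 UMIs, in 4 lineages and 3 libraries. The 2-hour NK bars (59.3% with at least 1 UMI) stand above all others, and T, B and neutrophil bars stay under 2%.

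Spry2 was also higher at 2 hours in the other lineages, at low levels. B-like cells had 4.8, 32.2 and 1.77 CPM in the naive, 2-hour and 3-day libraries, and neutrophil-like cells 15.1, 32.2 and 9.55 CPM. T-like cells had 12.9, 26.0 and 8.33 CPM, and monocyte-like cells 3.34, 19.4 and 4.46 CPM. Summed over each of these lineages, the 2-hour level lay between 19.4 and 32.2 CPM. Only 1.57% of thinned B-like, 1.27% of neutrophil-like and 0.836% of T-like cells had a UMI. The T-like sum pooled unlike clusters, with 9.55 CPM (5.66 to 15.1) in cluster 4 and 43.8 CPM (30.7 to 60.6) in cluster 9. The level in cluster 19 is not given here. The 82 UMIs of the T-like sum lay in 39 of 2525 cells. Within the 2-hour library there were 28.1 (26.9 to 29.5) Spry2 UMIs per 100 UMIs of the NK markers in NK-like cells and 36.4 (27.9 to 47.1) in T-like cells. The same ratio was 436 (223 to 932) in B-like cells, with 11 UMIs of the NK markers, and 332 (225 to 503) in neutrophil-like cells, with 34. At such shares the part of RNA from other cells was not tested, and no expression is read from them.

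Dusp5, the nuclear ERK phosphatase, was found in every lineage. NK-like cells had 319.7, 509.7 and 378 CPM in the naive, 2-hour and 3-day libraries, and T-like cells 158, 239 and 158 CPM. In both the 2-hour value was the highest, with log2 ratios to 3 days of 0.43 (0.27 to 0.59) in NK-like and 0.59 (0.46 to 0.72) in T-like cells, short of 2-fold. Neutrophil-like cells had 287, 334 and 272 CPM, and B-like cells 96.5, 99.96 and 90.4 CPM. B-like cells were thus flat across libraries, with intervals that overlapped. Among neutrophil-like cells at 2 hours, cluster 0 had 366 CPM and cluster 5 had 255 CPM.

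Dusp6, the cytoplasmic ERK phosphatase, was highest in neutrophil-like and monocyte-like cells among the 6 lineages. Neutrophil-like cells had 212 CPM before transplantation, 269 CPM 2 hours and 318 CPM 3 days after it. In B-like cells it was at 14.4, 92.6 and 27.6 CPM, so the 2-hour level was the highest, with a log2 ratio of 1.75 (1.45 to 2.04) to 3 days and 2.69 (2.21 to 3.18) to naive. After thinning, 3.89% (3.00 to 4.96) of B-like cells had a Dusp6 UMI at 2 hours, against 0.719% (0.196 to 1.83) and 1.16% (0.727 to 1.75) in the naive and 3-day libraries. The summed level of the neutrophil markers in B-like cells was 242, 2268 and 1235 CPM, and its part in the Dusp6 difference was not tested. In NK-like cells Dusp6 was at 8.89, 31.0 and 30.4 CPM, low before transplantation and alike at both later times, and in T-like cells at 5.49, 21.6 and 12.7 CPM. The summed neutrophil markers were at 375, 1785 and 4137 CPM in NK-like and 713, 1720 and 1241 CPM in T-like cells, and their part was likewise not tested.

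Dusp2, a nuclear phosphatase of activated leukocytes, went the other way in lymphocytes. NK-like cells had 359 CPM without transplantation, 154 CPM after 2 hours and 256 CPM after 3 days, and B-like cells 252, 154 and 218 CPM. T-like cells had 87.3, 46.6 and 66.8 CPM, so in all 3 lymphocyte lineages the 2-hour level was the lowest. The summed NK markers in NK-like cells were at 15170, 8403 and 13467 CPM, also lowest at 2 hours. The summed B markers in B-like cells were at 10461, 4899 and 7329 CPM, and the T markers in T-like cells at 3743, 3587 and 3643 CPM. The part of such differences in Dusp2 was not tested. In neutrophil-like cells Dusp2 was at 157, 143 and 75.0 CPM, lowest at 3 days instead. That 3-day value leaves out an unnamed cluster of 251 cells with more Dusp2, given under other observations, and the effect of this was not tested. The 2-hour value pooled cluster 0, at 171 CPM (155 to 188), with cluster 5, at 74.8 CPM (58.9 to 93.6). Cluster 5 thus lay near the 3-day level, and the part of neutrophil class in the ratios was not tested. Relative to 3 days, the 2-hour log2 ratio stood at -0.73 (-0.998 to -0.47) in NK-like and 0.93 (0.77 to 1.09) in neutrophil-like cells, both short of 2-fold, and the difference between them was not tested.

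Between 2 hours and 3 days, members called at least 2-fold higher at 2 hours numbered 2 of 7 measured in T-like cells (Dusp4 and Spry2), where 6.6% of all measured genes were called higher. Measured means a mean of at least 10 CPM and at least 20 UMIs over both libraries. They were 1 of 7 in NK-like cells (Spry2, background 6.84%), 2 of 7 in B-like cells (Dusp6 and Spry2, background 6.3%) and 1 of 5 in neutrophil-like cells (Spry2, background 7.05%). In monocyte-like cells they were 4 of 6 (Dusp2, Dusp5, Dusp6 and Spry2, background 8.92%). No member was called lower in any of the 5 lineages, where 8.76% of measured genes were in T-like, 13% in NK-like, 12.9% in B-like, 12.8% in neutrophil-like and 16.4% in monocyte-like cells. With a minimum of 20 CPM neither Dusp4 nor Spry2 was measured in T-like cells. The choice of the members used these values, so nothing is read from the counts.

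**Figure D3:**
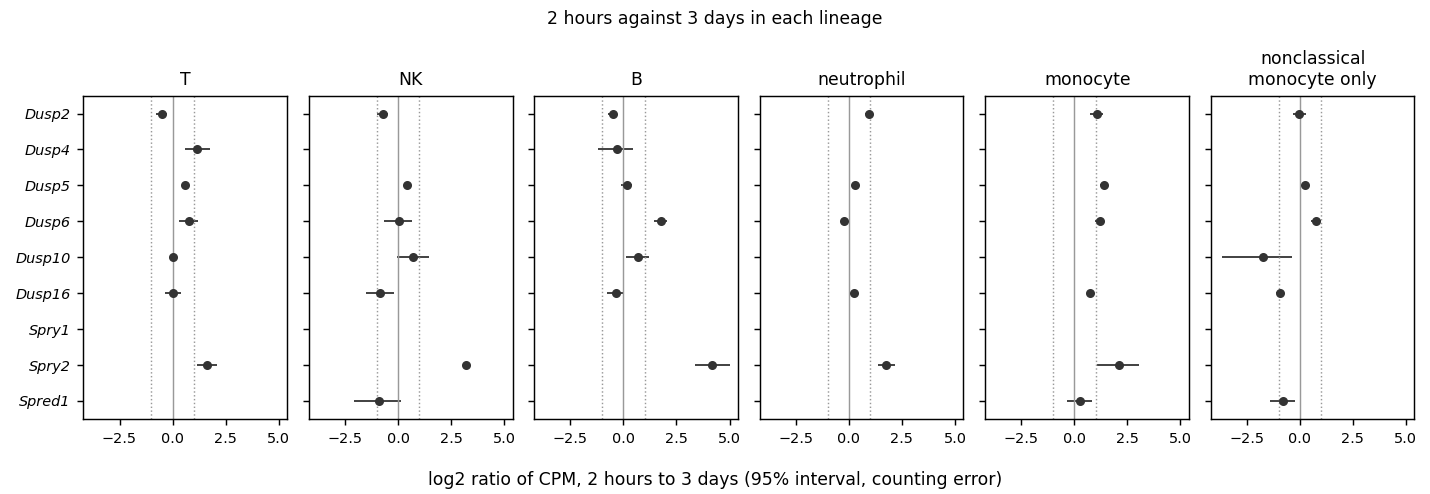
Log2 ratio of CPM at 2 hours to 3 days (x axis, 95% interval) for each measured gene (y axis) in 5 lineages and, in the last panel, in nonclassical monocytes only. Dotted lines mark 2-fold, and Spry2 in NK cells (3.19) lies far beyond them, while Dusp2 and Dusp5 lie beyond them in all monocytes and near 0 in nonclassical monocytes.

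The monocyte counts changed when nonclassical monocytes were taken alone. At 3 days 766 of 1295 monocyte-like cells lay in a cluster with classical markers such as Ly6c2 and Ccr2, whereas at 2 hours 365 of 366 lay in clusters with nonclassical markers such as Treml4 and Ace. The classical one, cluster 8, had a higher median log2 ratio for the erythroid list (3.74) than for the classical monocyte list (2.72). Over all monocyte-like cells Dusp5 was at 223, 542 and 208 CPM in the naive, 2-hour and 3-day libraries, Dusp2 at 88.1, 183 and 88.4 CPM, and Dusp6 at 109, 322 and 141 CPM. In nonclassical monocytes alone the 3-day levels were 457 CPM for Dusp5, 186 for Dusp2 and 189 for Dusp6. The log2 ratios of 2 hours to 3 days then became 0.25 (0.08 to 0.43) for Dusp5, -0.02 (-0.33 to 0.28) for Dusp2 and 0.76 (0.53 to 0.996) for Dusp6, and no measured member was called higher. Spry2 was at 19.4 CPM (11 UMIs) at 2 hours and 0.66 CPM (3 UMIs) at 3 days there, too few UMIs to count as measured. Dusp10 was called lower at 2 hours there, at -1.76 (-3.66 to -0.36) with 4 UMIs against 109, and Dusp16 was at -0.94 (-1.13 to -0.76). Cluster 28, with 37 of the 3-day cells, also passed the T list (1.86, against 2.12 for the nonclassical list), and its part was not tested. Against naive nonclassical monocytes Dusp5 was higher at both times, by 1.29 (1.07 to 1.51) at 2 hours and 1.03 (0.88 to 1.19) at 3 days. Dusp2 was likewise at 1.06 (0.69 to 1.43) and 1.08 (0.84 to 1.34). Cluster 26, with 138 of these 143 naive cells, passed both monocyte lists, with median log2 ratios of 4.84 (nonclassical) and 2.55 (classical). Classical monocytes had 122 CPM of Dusp5 and 54.4 CPM of Dusp2 at 3 days. The part of monocyte class in the ratios to naive was not tested. The summed neutrophil markers stood at 8317 CPM in monocyte-like cells at 2 hours, against 1061 in the naive library and 1986 at 3 days, and their part was not tested.

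Dusp16, a phosphatase of JNK and p38, was highest in neutrophil-like and monocyte-like cells among the 6 lineages. Outside these lineages, basophil or mast cell-like cells had 280 CPM at 2 hours and 453 CPM at 3 days. Neutrophil-like cells had 748 CPM in naive lungs, 423 CPM after 2 hours and 357 CPM after 3 days. The 2-hour value pooled 473 CPM in cluster 0 with 299 CPM in cluster 5. Nonclassical monocytes had 672, 456 and 876 CPM, and classical monocytes 59.5 CPM at 3 days, so the monocyte classes of the 3-day library lay far apart. T-like and NK-like cells stayed between 26.0 and 46.8 CPM, and B-like cells had 104, 41.6 and 54.0 CPM.

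Dusp10, which acts on p38 and JNK, was a T cell gene. T-like cells had 335 CPM in naive lungs, 169 CPM after 2 hours and 165 CPM after 3 days, and they held 88.8%, 86.8% and 75.1% of the Dusp10 UMIs of the 6 lineages. The next lineage was 11.99-fold lower in naive lungs, 5.81-fold after 2 hours and 9.21-fold after 3 days. T-like cells with a Cd4 UMI and no Cd8 or Foxp3 UMI were above those with a Cd8 UMI and no Cd4 UMI in each library, with log2 ratios of 1.09 (0.94 to 1.24), 1.24 (0.60 to 1.86) and 1.03 (0.85 to 1.204). Levels were 493, 219.7 and 236 CPM in the former and 232, 93.0 and 116 CPM in the latter.

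Dusp4, an ERK phosphatase of the nucleus, was scarce. T-like cells had 4.97, 14.0 and 6.19 CPM and B-like cells 11.6, 10.1 and 12.5 CPM, and all other lineages stayed under 5 CPM. Within T-like cells of the 3-day library it was at 64.3 CPM (39.3 to 99.3, 20 UMIs in 45 cells) in cells with a Foxp3 UMI, the marker of regulatory T cells. Cells with a Cd4 UMI and neither a Cd8 nor a Foxp3 UMI had 6.82 CPM, a log2 ratio of 3.24 (2.20 to 4.31). At 2 hours 41 cells with a Foxp3 UMI had 6 Dusp4 UMIs, or 96.6 CPM (35.4 to 210.2). A Foxp3 UMI is found more readily in deep cells, so these cells are not all regulatory T cells of the sample.

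**Figure D4:**
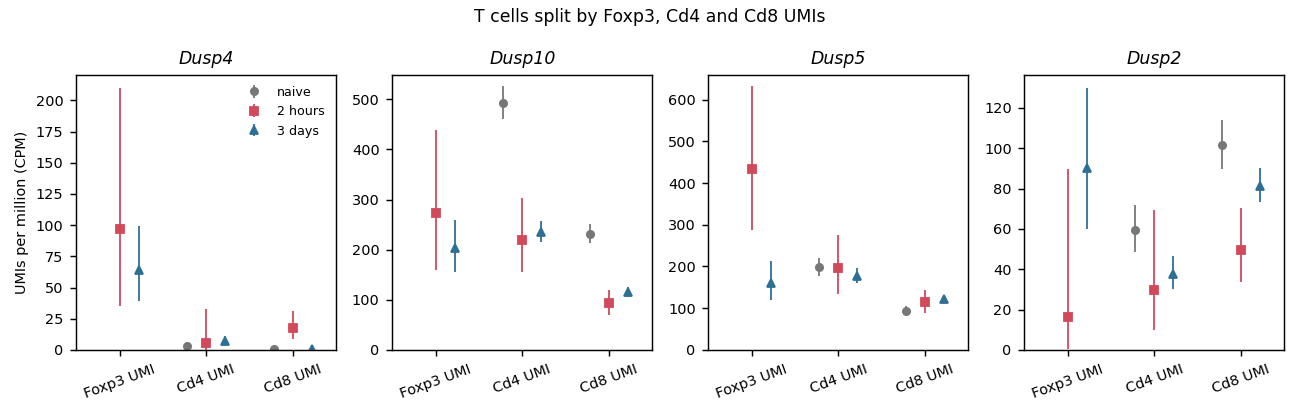
CPM (y axis, from 0) of Dusp4, Dusp10, Dusp5 and Dusp2 in T-like cells split by Foxp3, Cd4 and Cd8 UMIs (x axis) in 3 libraries, with 95% Poisson intervals. Dusp4 is highest in cells with a Foxp3 UMI (64.3 CPM at 3 days), and Dusp10 is higher in Cd4 than in Cd8 cells of each library. Cells with a Foxp3 UMI are not drawn for the naive library.

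Spred1 was highest in monocyte-like and macrophage-like cells among the 6 lineages. Outside these lineages, endothelial-like cells had 72.9 CPM in the naive library and 49.2 CPM at 3 days. Dendritic-like cells had 41.7 CPM at 2 hours and 58.4 CPM at 3 days. Monocyte-like cells had 97.5, 47.5 and 39.4 CPM in the naive, 2-hour and 3-day libraries, and macrophage-like cells 52.4 CPM in the naive library and 133 at 3 days. The macrophages were of different kinds, since 102 of 108 in the naive library lay in a cluster with alveolar markers such as Marco, and at 3 days 634 and 166 of 800 lay in clusters with other macrophage markers. The same holds for Dusp2, at 13.2 and 108 CPM in macrophage-like cells. Spry1 stayed at or under 7.3 CPM in every lineage and library, and its highest values were in T-like cells at 2 hours (7.3 CPM) and naive macrophage-like cells (6.86 CPM).

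Against the naive library, members called higher at 2 hours were 2 of 6 measured in T-like cells (Dusp6 and Spry2, background 7.13%) and 2 of 7 in NK-like cells (Dusp6 and Spry2, background 8.39%). They were 2 of 7 in B-like cells (Dusp6 and Spry2, background 8.38%), 1 of 6 in neutrophil-like cells (Spry2, background 9.24%) and 3 of 6 in monocyte-like cells (Dusp2, Dusp5 and Dusp6, background 9.25%). Called lower were Dusp2 in NK-like (background 26.2%), Dusp16 in B-like (30.2%), Spred1 in neutrophil-like (23.5%) and Dusp10 and Spred1 in monocyte-like cells (27.2%), with 0 of 6 in T-like cells (27%). At 3 days Dusp6 was called higher in NK-like cells (background 4.38%) and Dusp2 and Spred1 in macrophage-like cells (11.4%). None of the measured members was called higher in T-like (background 2.07%), B-like (3.02%), neutrophil-like (7.06%) or monocyte-like cells (3.12%). Over nonclassical monocytes alone Dusp2 and Dusp5 were, with no background taken for that subset. Called lower at 3 days were Dusp10 in T-like cells (background 17.8%), Dusp2, Dusp16 and Spred1 in neutrophil-like cells (16.3%) and Dusp10, Dusp16 and Spred1 in monocyte-like cells (15.6%), and none in NK-like (16.4%), B-like (19.0%) or macrophage-like cells (23.6%).

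The genes called lower than naive were mostly those with long introns. Dusp10, Dusp16 and Spred1 have 59.3, 69.4 and 54.1 kb of intron, and the other members 10.8 kb or less. Over all measured genes with more than 50 kb of intron, the median log2 ratio of 3 days to naive was -1.07 in T-like, -1.16 in B-like, -0.83 in neutrophil-like and -0.91 in monocyte-like cells. Dusp10 in T-like cells (-1.02) and Dusp16 in monocyte-like cells (-1.32) therefore lay near or somewhat below genes of like length, and Spred1 in neutrophil-like cells (-2.44) further below. In nonclassical monocytes alone no member was called lower at 3 days, and the ratio to naive was 0.38 (0.29 to 0.48) for Dusp16, -0.04 (-0.55 to 0.50) for Dusp10 and -0.24 (-0.51 to 0.02) for Spred1. The naive cells of that class lay mostly in cluster 26, which also passed the classical list. Its 3-day cells included cluster 28, which also passed the T list. In macrophage-like cells the median was -0.95, and Spred1 lay at 1.34 and Dusp16 at 0.41. In NK-like cells it was -0.96, and Dusp16 lay at 0.67, Dusp10 at -0.18 and Spred1 at -0.08. Dusp16 was at -0.13 in T-like, -0.94 in B-like and -1.07 in neutrophil-like cells, and Dusp10 at -0.93 in B-like cells. The naive counts came from another Cell Ranger version than the transplant counts, and for these genes a difference in counting cannot be told apart from one in the cells. Between 2 hours and 3 days, which share a version, the medians of such genes lay between -0.49 and -0.18. Genes with over 0 to 10 kb of intron were shifted upward against naive. Their median log2 ratios lay between 0.13 (monocyte-like) and 0.29 (NK-like) at 2 hours. At 3 days they lay between 0.05 (macrophage-like) and 0.41 (neutrophil-like). Spry2, Dusp6 and Dusp2 are of this length, and the part of counting in their ratios to naive was not tested. Spry2 at 2 hours was only just over 2-fold in T-like (1.02) and neutrophil-like cells (1.09).

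**Figure D5:**
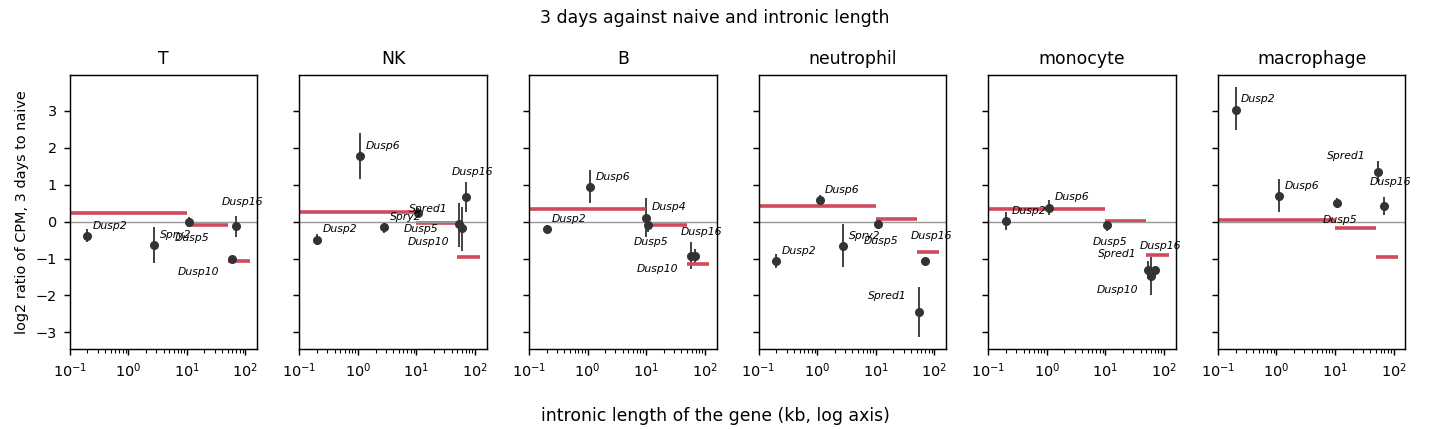
Log2 ratio of CPM at 3 days to naive (y axis, 95% interval) of measured members against intronic length in kb (x axis, log scale) in 6 lineages. Red lines are medians of all measured genes with up to 10, 10 to 50 and over 50 kb of intron. The last lies between -1.16 and -0.83 in every lineage. Spred1 lies well above it in macrophages, and Dusp10, Dusp16 and Spred1 lie above it in NK cells.

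Other genes of the pathway, from a list of 55, were set beside the members. Of 11 transcripts known to be induced by ERK, 7 of 8 measured were at least 2-fold higher at 2 hours than at 3 days in B-like cells, 4 of 7 in NK-like, 3 of 6 in T-like, 3 of 7 in monocyte-like and 2 of 8 in neutrophil-like cells. Of all measured genes, 6.3%, 6.84%, 6.6%, 8.92% and 7.05% were called higher in these lineages, in the same order. The monocyte-like counts in this paragraph set mostly nonclassical cells at 2 hours against mostly classical cells at 3 days, and the part of this was not tested. Fos, a subunit of AP-1, was among the transcripts called higher in all 5 lineages, at 793 against 113 CPM in B-like and 480 against 103 CPM in NK-like cells. Egr1, an immediate-early transcription factor, was at 266 against 46.35 CPM in B-like cells, and at 75.1 against 56.3 CPM in NK-like cells. Egr3 in neutrophil-like and Fosl1 in monocyte-like cells were called lower. Of the 11 RAS, RAF, MEK and ERK genes, 1 of 10 was called higher in T-like and NK-like cells (Nras) and 0 of 10 in B-like cells, with 0 called lower in each. In monocyte-like cells 1 of 10 was called higher (Braf) and 1 lower (Mapk3, which encodes ERK1). Among 8 stress kinase genes Mapk14, which encodes p38 alpha, was called lower at 2 hours in all 5 lineages, for example at 16.8 against 60.9 CPM in B-like cells. No other was called, of 5 measured in neutrophil-like cells and 7 in each other lineage. Of all measured genes, 8.76% were called lower in T-like, 13% in NK-like, 12.9% in B-like, 12.8% in neutrophil-like and 16.4% in monocyte-like cells. Of 14 other Dusp, Sprouty and Spred genes, Dusp1, an early phosphatase of p38 and JNK, was called higher in T-like, B-like and monocyte-like cells, with 298 against 120 CPM in T-like cells. It was the only one called of 3 measured in T-like and of 4 in B-like cells. Of 4 in monocyte-like cells, Dusp3 was also called higher and Dusp22 lower. None was called of 6 in NK-like and 2 in neutrophil-like cells.

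The genes whose levels most resembled a member were sought over 11 sums of lineage and transplant library, by Pearson correlation of log2(CPM + 10) among 8512 genes. The sums share libraries and depth, so the values are descriptions. For Spry2 they were Klri2 (0.904), Klrb1c (0.899) and Mosmo (0.897), the first and second of which encode NK receptors. For Dusp10 they were Nsg2, Tnfsf8 and Plcg1 (0.971 to 0.974), and for Dusp6 Ogfrl1, Scnn1a and Themis2 (0.942 to 0.951). Dusp5 and Dusp2 had weaker matches, led by Ccl4 (0.875) and Serinc3 (0.875). With the naive library added, of each 3 genes 0 were shared for Spry2, Dusp2 and Dusp10, 1 for Dusp5 and 2 for Dusp6.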

How the data were processed

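The authors deposited unnormalized UMI counts per gene and cell for 3 libraries, made with Cell Ranger 7.1.0 (naive) and 6.0.0 (2 hours and 3 days) per the file headers. The submitters' processing notes name mm10. The labels list both a 5′ and a 3′ kit, so the chemistry is not settled, and whether introns were counted is not stated in the sources used here. Total deposited UMIs were 28538529, 10749100 and 70750470. The filters of the methods were used: over 200 and below 6000 genes per cell, below 25000 UMIs and below 10% of UMIs from mitochondria. Seurat 5.3.0 (R 4.3.3, sctransform 0.4.2) clustered them with 30 principal components at a Louvain resolution of 0.8, with the members and pathway genes left out of the variable features. A cluster was named where at least 3 markers, and the median of its list, exceeded a log2 ratio of 1 to other cells. Lists were tried from the highest median down. A list was passed over where markers of another lineage outnumbered its own among the 10 top genes of the cluster. It was also passed over in shallow clusters with none of its markers among those genes. Plasma-like cells, those with 1% or more of their UMIs from Jchain, were kept out of the lineages. Scrublet in scanpy 1.11.5 called 40, 403 and 277 doublets, removed only in an alternative.

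UMIs were summed per lineage and library. CPM carry exact Poisson, log2 ratios exact conditional binomial, and shares Clopper-Pearson 95% intervals, from scipy 1.17.1. PCR and capture error are not covered. Called means at least 2-fold. With 1 library per condition no test was run. The members, the marker and pathway lists and the rule for similar genes (3 genes per member with at least 500 UMIs) were chosen with earlier results of these data known. The rule named 12 sums, but the macrophage sum at 2 hours had under 50 cells, so 11 were used. The similar genes of Dusp16 and Spred1, and the called core kinase genes of neutrophil-like cells, are not reported here. All 9 members were found by symbol, and 32235 of 32285 gene identifiers were in GENCODE vM21, from which intronic lengths were taken. RefSeq promoters (GRCm38.p6) were given for 8 members and are printed up to the earlier of the RefSeq and GENCODE starts. The antibody counts in the transplant files were not used. The alternatives were no cell filter, cells called one by one, resolutions of 0.4 and 1.2, removal of doublets or of cells with mixed markers, thinning to 500 UMIs, means over cells, another total, and minimum levels of 5 and 20 CPM. The count computation was tested on simulated data.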

Additional observations from a re-analysis of the deposited data

Results flagged for a closer look

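Dusp2 differed from naive in opposite directions between lineages. At 2 hours its log2 ratio to naive was 1.06 in monocyte-like and -1.22 in NK-like cells. At 3 days it was 3.03 in macrophage-like and -1.06 in neutrophil-like cells. The neutrophil-like value leaves out the unnamed 3-day cluster given under other observations, which had more Dusp2. The macrophage-like cells of the naive library were mostly alveolar and those of the 3-day library were not.

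Spred1 at 3 days was above naive in macrophage-like cells, by 1.34 on the log2 scale, with a ratio of -2.44 in neutrophil-like and -1.31 in monocyte-like cells. In nonclassical monocytes alone it was -0.24 (-0.51 to 0.02), and 766 of 1295 monocyte-like cells at 3 days were in the classical cluster. The naive nonclassical cells lay mostly in a cluster that also passed the classical list. The macrophage-like cells differed in kind here too. With 1 library per condition, none of these differences between lineages was tested.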

How the results depend on the processing

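Spry2 in NK-like cells kept its direction and stayed over 2-fold at 2 hours against 3 days under every alternative that gave a value, with log2 ratios from 3.17 to 3.51. Of 35 called ratios, 339 values under the alternatives were obtained, of which 335 kept the direction and 288 stayed at least 2-fold. The exceptions in direction were monocyte values. Without cells of mixed markers, which left 55 monocyte-like cells at 3 days, Dusp2 at 2 hours to 3 days was -0.27 and Dusp5 -0.00367. With nonclassical monocytes only, Dusp2 was -0.0197, and Dusp16 at 3 days to naive was 0.38. The cause was not tested. The first of these settings had fewer cells, and the second had no classical monocytes. Leaving out a replicate was impossible with 1 library per condition. No paired analysis was possible because each condition had 1 library and no test was run.

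The depth limits low genes: in NK-like cells at 2 hours, a count of 0 allows up to 3.00 CPM. At a resolution of 0.4 only 2 monocyte-like cells remained at 2 hours, so that setting gave no monocyte value for that library.

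Counts of members called at least 2-fold moved with the settings as follows, by lineage and over all lineages together. In the main setting the totals over lineages were 10 higher and 0 lower at 2 h than 3 days, 10 and 5 at 2 h than naive, and 3 and 7 at 3 days than naive. Shares over all measured genes are given above by lineage for the main setting only. Nothing is read from the counts in this paragraph. Counts not given stayed within 1.5 times. With no cell filter and cells called one by one from marker UMIs, higher at 2 h than 3 days were 1 in T and 2 in monocyte, lower at 2 h than 3 days were 1 in T, 1 in NK and 2 in all, lower at 2 h than naive were 1 in T, 3 in NK and 1 in monocyte, higher at 3 days than naive were 0 in NK, 1 in monocyte and 1 in macrophage, and lower at 3 days than naive were 0 in T, 2 in B, 0 in neutrophil and 2 in macrophage. With kept cells called one by one, higher at 2 h than 3 days were 2 in monocyte, lower at 2 h than 3 days were 1 in T, 1 in NK and 2 in all, higher at 2 h than naive were 1 in T, lower at 2 h than naive were 2 in T, 3 in NK and 9 in all, higher at 3 days than naive were 0 in NK and 0 in all, and lower at 3 days than naive were 0 in T, 1 in B and 1 in neutrophil. At a resolution of 0.4, higher at 2 h than 3 days were 1 in T and 5 in all, lower at 2 h than naive were 3 in all, and higher at 3 days than naive were 1 in T, 1 in B and 5 in all. At a resolution of 1.2, higher at 2 h than 3 days were 1 in T and 2 in neutrophil, higher at 2 h than naive were 1 in T, and higher at 3 days than naive were 1 in T. Without called doublets, higher at 2 h than 3 days were 2 in neutrophil, lower at 2 h than 3 days were 1 in NK and 1 in all, higher at 2 h than naive were 1 in T and 0 in neutrophil, lower at 2 h than naive were 1 in T, 3 in NK and 8 in all, higher at 3 days than naive were 0 in NK, and lower at 3 days than naive were 0 in T and 1 in B. Without cells of mixed markers, higher at 2 h than 3 days were 0 in T, 0 in monocyte and 3 in all, lower at 2 h than 3 days were 1 in monocyte and 1 in all, higher at 2 h than naive were 4 in all, lower at 2 h than naive were 2 in T and 3 in all, higher at 3 days than naive were 0 in all, and lower at 3 days than naive were 1 in B and 2 in all. With cells thinned to 500 UMIs, higher at 2 h than 3 days were 0 in neutrophil and 1 in monocyte, higher at 2 h than naive were 1 in NK, lower at 2 h than naive were 0 in neutrophil, 0 in monocyte and 2 in all, higher at 3 days than naive were 0 in NK, and lower at 3 days than naive were 1 in B. As means over cells, higher at 2 h than 3 days were 1 in T, 1 in monocyte and 6 in all, lower at 2 h than 3 days were 1 in NK and 1 in all, higher at 2 h than naive were 1 in T and 0 in neutrophil, lower at 2 h than naive were 1 in T, and lower at 3 days than naive were 0 in T and 1 in B. With ribosomal, mitochondrial, immunoglobulin and hemoglobin genes out of the total, higher at 3 days than naive were 1 in T, 1 in B and 5 in all, and lower at 3 days than naive were 0 in T. With a minimum of 5 CPM, lower at 2 h than naive were 1 in T, and higher at 3 days than naive were 1 in T and 5 in all. With a minimum of 20 CPM, higher at 2 h than 3 days were 0 in T, 1 in B and 6 in all, higher at 2 h than naive were 0 in T, 1 in NK, 1 in B and 6 in all, lower at 2 h than naive were 0 in neutrophil, 1 in monocyte and 3 in all, and higher at 3 days than naive were 0 in NK. With nonclassical monocytes only, a choice made after seeing the data, higher at 2 h than 3 days were 0 in monocyte and 6 in all, lower at 2 h than 3 days were 1 in monocyte and 1 in all, higher at 3 days than naive were 2 in monocyte and 5 in all, and lower at 3 days than naive were 0 in monocyte and 4 in all. An unnamed cluster of 372 cells at 2 hours and 2 at 3 days passed the neutrophil list but was left out of the lineages. Adding it to the neutrophil-like cells, also chosen after seeing the data, moved no count beyond 1.5 times. The unnamed 3-day cluster given under other observations was not added.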

Other observations

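Spry2 was also higher at 2 hours than at 3 days in basophil or mast cell-like, dendritic-like and endothelial-like cells. A cluster of 68 cells at 2 hours and 112 at 3 days, led by Mcpt8, Gata2 and Cd200r3, had 1604 CPM of Spry2 at 2 hours and 107 at 3 days, a log2 ratio of 3.91 (3.49 to 4.33). Dusp5 was at 1200.5 and 306 CPM there, a ratio of 1.97 (1.62 to 2.31), and Dusp6 was alike at 123 and 128 CPM.

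Dendritic-like cells, in a cluster that held plasmacytoid and conventional markers (212 cells at 2 hours, 130 at 3 days), had Dusp6 at 167 CPM at 2 hours and 37.5 at 3 days, a log2 ratio of 2.15 (1.68 to 2.63). Dusp2 had a ratio of -1.42 (-2.0001 to -0.89) there, with 68.0 and 182 CPM. Spry2 was at 78.9 CPM (36 UMIs) at 2 hours and 0.487 CPM (1 UMI) at 3 days there, a log2 ratio of 7.34 (4.77 to 12.7). Endothelial-like cells had Spry1 at 10.9 CPM (2.26 to 32.0) in 89 naive cells, 106 CPM (38.7 to 229.8, 6 UMIs) in 35 cells at 2 hours and 31.1 CPM (18.7 to 48.6) in 167 cells at 3 days. Their Spry2 was at 229 CPM (13 UMIs) at 2 hours and 26.2 CPM (16 UMIs) at 3 days, a log2 ratio of 3.13 (1.95 to 4.27). An unnamed cluster of 251 cells at 3 days had 740.3 CPM of Dusp2, above NK-like cells of the same library at 256 CPM and neutrophil-like cells at 75.0 CPM. Its cells passed no marker list and were left out of the 6 lineages. At a resolution of 0.4 no cluster was left unnamed, and neutrophil-like cells at 3 days numbered 2415 instead of 2161. These clusters were chosen after their values were seen.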
